A study of Mus musculus with 12 samples.

Results

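The comparison described here is that of mouse double-positive (DP) thymocytes with a tamoxifen-induced knockout of Satb1 against wild-type (WT) DP thymocytes, gene by gene across the transcriptome. Its members are the genes that passed a filter on low counts: 16776 of the 49997 genes in the DP count table. The study sequenced poly(A) RNA of DP cells and of CD4 thymocytes, each sorted from WT or from Satb1 knockout (KO) thymus. It has 12 libraries, 3 per genotype and cell type, and 6 of them are DP. Every group carries the tamoxifen treatment, the WT controls included, so the groups compared differ in genotype and not in the drug. The sorted primary cells were extracted with TRIzol. The sources used here give no strain, age, driver of the inducible recombinase, deleted part of Satb1 or sort gates. Nothing in the labels says that replicates are separate mice, so the p-values measure the spread between these samples, which may be technical. A batch field in the labels carries the same number as the replicate.

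The double-positive stage is named for its surface co-receptors CD4 and CD8, present on the same cell. They rearrange the T cell receptor alpha locus with the recombinase of Rag1 and Rag2, and are then tested by signalling of the finished receptor before they mature into CD4 or CD8 T cells. SATB1 is a nuclear protein abundant in these cells that binds AT-rich DNA, folds chromatin between distant elements and recruits chromatin-modifying complexes. DP thymocytes are small, mostly resting cells with high levels of the genes that define their stage.

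Satb1 itself was at 3851, 3789 and 3839.8 CPM (counts scaled to the TMM-adjusted library size) in WT 1 to 3 and at 2512, 2858 and 2438 CPM in KO 1 to 3. The groups did not overlap, and Satb1 fell by 0.56 ± 0.076 on the log2 scale (± SE here and below; edgeR adjusted p = 5.39e-04). Counts over the whole gene do not show whether the remaining RNA holds the deleted part. The label of DP thymocyte was checked against 11 markers of the stage. Their summed level lay between 13196 and 14325 CPM in the WT libraries and between 7944 and 8282 CPM in the KO libraries, and 9 of the 11 fell. The T cell markers Trac, Trbc1 and Trbc2 were at 0 in all 6 libraries, and the table counts the receptor loci under Tcra and Tcrb. Markers of other cells summed to lower levels. Those of double-negative thymocytes and progenitors summed to between 22.5 and 36.2 CPM in WT and between 367 and 469 CPM in KO, of which Il2ra alone held 413, 451 and 353 CPM. B cell markers summed to between 17.2 and 22.0 CPM in WT and between 21.7 and 27.1 CPM in KO. Myeloid markers summed to between 16.8 and 21.4 CPM in WT and between 12.1 and 18.5 CPM in KO, and markers of NK and NKT cells to between 3.05 and 4.39 CPM in WT and between 5.96 and 10.7 CPM in KO. Markers of stroma and endothelium summed to between 144 and 150 CPM in WT and between 181 and 202 CPM in KO, nearly all of it Pecam1, an adhesion molecule also found on leukocytes. Of that set Pecam1 (log2 fold change 0.32) and Pdgfrb (1.72) rose, and the other 6 markers stayed under 1 CPM in every library. Dendritic cell markers summed to between 67.3 and 108 CPM in WT and between 79.6 and 104 CPM in KO, with none of 8 called. Those of thymic epithelium summed to between 4.46 and 5.31 CPM in WT and between 0.986 and 1.91 CPM in KO, where Epcam fell (-1.84) and the other 5 were under 1 CPM in every library. Erythroid markers varied most within groups, from 26.0 to 196 CPM in WT and from 67.4 to 329.8 CPM in KO, and none of the 5 tested was called. In bulk samples such as these, fewer cells of a type and less RNA per cell cannot be told apart.

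The libraries held between 22790504 counts (WT 3) and 59840774 counts (KO 1), and a count of 3 corresponded to between 0.0496 and 0.133 CPM, counting error alone considered. Some measurements separated libraries in ways the genotype labels do not name, and their part in the results was not tested. The WT libraries held counts for more silent genes: of 1428 olfactory receptor genes, 482, 314 and 220 had a count in WT 1 to 3 and 83, 72 and 82 in KO 1 to 3. The 33221 genes under the low-count filter summed to 1885, 1212 and 1195 CPM in WT and to 566, 566 and 507 CPM in KO. Structural RNAs without a poly(A) tail, a set added after these values were seen, summed to 335, 83.1 and 145 CPM in WT and to 38.4, 17.0 and 33.0 CPM in KO. Xist, the RNA of the inactive X chromosome, was at 0.837 and 0.270 CPM in WT 1 and WT 2 but at 472 CPM in WT 3 and at 192, 281 and 597 CPM in the KO libraries. The Y-linked gene Ddx3y was counted in all 6, at 126, 108 and 73.3 CPM in WT and 113, 88.1 and 40.1 CPM in KO. For this reason the comparison was also made with WT 3 as the lone control. In KO 2, markers of mature CD4 thymocytes (Zbtb7b, Ccr7 and Cd40lg) summed to 17.7 CPM, against 4.03 and 2.499 CPM in the other KO libraries and 9.73 to 15.7 CPM in WT.

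**Figure D1:**
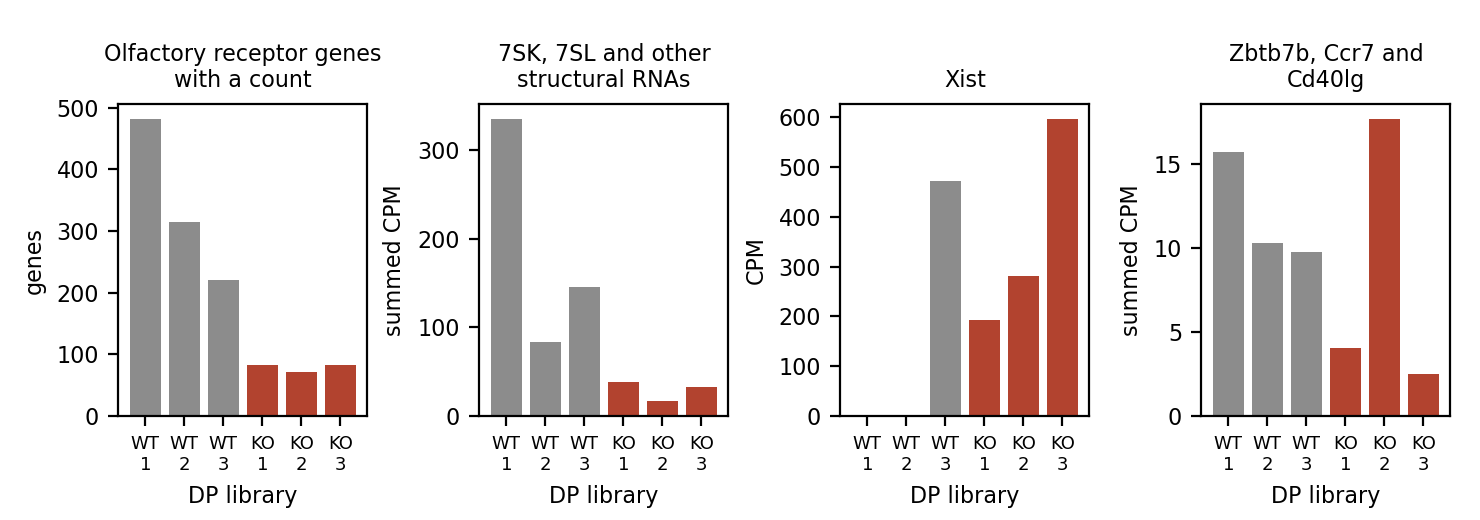
Each panel plots 1 measure per DP library as bars, WT 1 to 3 and KO 1 to 3: the number of olfactory receptor genes with a count, the summed CPM of structural RNAs, the CPM of Xist, and the summed CPM of Zbtb7b, Ccr7 and Cd40lg. The WT libraries are higher in the first and second measures, WT 1 and WT 2 are near 0 for Xist, and KO 2 stands above the other KO libraries in the last.

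Of the 16776 genes tested, 2805 (16.7%) rose and 2362 (14.1%) fell in KO against WT (edgeR quasi-likelihood test, Benjamini-Hochberg adjusted p under 0.05). These shares are the background for every list below. The median log2 fold change of all tested genes was 0.01. Fewer genes fell than rose, but the median fall was larger: over called genes of every level it was 0.64 for rises and -1.002 for falls. This order did not hold for the largest changes among the genes described first below, which reached 10 CPM per kilobase in a group. There the 12th largest rise was 4.17 and the 12th largest fall -3.04. A change of at least 1 on the log2 scale was reached by 877 rising and 1181 falling genes, of at least 2 by 333 and 566, and of at least 4 by 71 and 91. The balance moved with the level of a gene. Among the 5255 tested genes averaging under 1 CPM per kilobase over the 6 libraries, 478 rose and 870 fell. Among the 5377 genes between 10 and 100 CPM per kilobase, 959 rose and 742 fell, and among the 578 above 100, 158 rose and 94 fell. Over the 11521 genes of at least 1 CPM per kilobase, 2327 (20.2%) rose and 1492 (13.0%) fell. The WT libraries, in which silent genes held more counts, were the higher group for the falling genes of low level, and the part of those counts in their calls was not tested. By gene type, 2438 of 12734 protein-coding genes rose and 1867 fell, whereas 163 of 1934 lncRNAs rose and 305 fell, and 13 of 30 small nuclear RNAs fell. Among genes annotated on 1 sequence only, the 2207 that fell had longer exon models (median 4337 bases) than the 2668 that rose (3371) or the 11041 not called (3018). With WT 3 as the lone control, which leaves 4 libraries, 1089 of 17962 genes rose (6.06%) and 818 fell (4.55%), on the assumption that the lone control varied like the KO libraries. Where leaving out a library, or this lone control, moved the count of a list by more than 1.5 times, the other count stands in its paragraph. In every gene named as rising or falling below, apart from Irf7, Gbp3, Oas2 and Oas1b, the KO and WT libraries did not overlap.

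The genes described first are the 12 that rose most and the 12 that fell most, by log2 fold change, among called genes reaching 10 CPM per kilobase in a group. In all 24 the 3 KO libraries lay on the same side of the 3 WT libraries. Necab1, a calcium-binding protein of neurons, was at 0.249, 0.145 and 0.177 CPM in WT and at 47.8, 49.96 and 52.8 CPM in KO (8.01 ± 0.16 on the log2 scale). Maf, a basic leucine zipper factor of effector T cells, went from 3.69, 2.49 and 3.67 CPM to 344, 363 and 265 CPM (6.65 ± 0.19). Il18r1, the binding chain of the interleukin 18 receptor, was at 1.20, 1.10 and 1.55 CPM in WT and 58.7, 62.0 and 69.2 CPM in KO (5.66 ± 0.14). These 3 went from a few CPM or less to more than 47 CPM in every KO library. Serpine2, a secreted inhibitor of serine proteases, was at 3.26, 2.93 and 3.32 CPM in WT and 91.0, 89.2 and 119 CPM in KO (4.98 ± 0.14). Col27a1, a fibrillar collagen, was higher at the start, at 12.3, 16.6 and 20.7 CPM in WT, and reached 363, 359.9 and 324 CPM in KO (4.41 ± 0.17). Pdlim4, an adaptor that binds actin filaments through a PDZ and a LIM domain, was at 2.40, 3.80 and 3.67 CPM in WT and 55.9, 50.2 and 70.7 CPM in KO (4.17 ± 0.20). The orphan receptor Gpr25 was at 4.03, 4.54 and 7.17 CPM in WT and 97.6, 107 and 73.9 CPM in KO (4.19 ± 0.22), and Niban1, a stress-responsive protein, at 2.40, 1.10 and 0.841 CPM in WT and 63.7, 76.6 and 71.3 CPM in KO (5.54 ± 0.28). The actin-binding proteins Actn2 (6.38) and Scin (6.20), the heparan sulfate proteoglycan Sdc1 (6.26) and the interleukin 2 receptor alpha chain Il2ra (5.07) completed the 12. The largest adjusted p among the rising genes was 1.73e-06 (Il2ra).

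The 12 genes at the other end fell by at least 3.04 on the log2 scale. Jup, the desmosome and adherens junction protein plakoglobin, was at 144, 146 and 120.0 CPM in WT and 5.19, 6.999 and 4.84 CPM in KO (-4.59 ± 0.15). Slc7a11, the cystine-glutamate exchanger that feeds glutathione synthesis, was at 155, 174 and 181 CPM in WT and 7.56, 7.93 and 8.53 CPM in KO (-4.41 ± 0.094). Gramd1a, which carries cholesterol from the plasma membrane to the endoplasmic reticulum, was at 441, 416 and 371 CPM in WT and varied more between the KO libraries, at 28.6, 47.8 and 12.2 CPM (-3.79 ± 0.40). Dhrs3, a retinaldehyde reductase, was at 190.5, 192 and 163 CPM in WT and 15.6, 17.8 and 10.3 CPM in KO (-3.64 ± 0.18). Sema7a, a membrane-anchored semaphorin, was at 129, 129 and 127 CPM in WT and 11.8, 11.99 and 7.63 CPM in KO (-3.61 ± 0.16). F13a1, the A chain of coagulation factor XIII, was at 192, 182 and 209 CPM in WT and 20.7, 21.3 and 20.5 CPM in KO (-3.22 ± 0.078). All of these were above 100 CPM in WT, and the SE was smallest for F13a1 and Slc7a11. The kinase Map4k5 (-3.36), the exchange-factor-like protein Als2cl (-3.24), the matrix protein Smoc1 (-3.96) and the tight junction protein Cldn4 (-3.70) also fell. The remaining 2 are structural RNAs. Rn7sk, which holds the elongation factor P-TEFb inactive, was at 81.8, 24.0 and 35.5 CPM in WT and 5.87, 2.41 and 9.12 CPM in KO (-3.04 ± 0.53), and Rmrp, the RNA of RNase MRP, at 6.31, 1.18 and 1.95 CPM in WT and 0.645, 0.128 and 0.252 CPM in KO (-3.18 ± 0.71). For Rmrp the highest KO library lay at 0.645 CPM and the lowest WT library at 1.18 CPM, and its call was lost with WT 3 as the lone control (edgeR adjusted p = 0.0848). The other 23 of the 24 genes kept their calls under every alternative.

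The other structural RNAs tested, Rn7s1, Rn7s2, Rpph1 and Rnu1a1, fell as well. The near-identical signal recognition particle RNAs Rn7s1 (112, 24.0 and 49.9 CPM in WT, 13.5, 5.36 and 10.1 CPM in KO) and Rn7s2 (113, 23.7 and 49.7 CPM in WT, 13.3, 5.52 and 9.56 CPM in KO) can share reads. Rpph1, the RNA of RNase P, was at 16.9, 6.29 and 7.52 CPM in WT and 4.40, 2.72 and 3.21 CPM in KO (-1.58 ± 0.36). WT 1 was the highest library for Rn7s1, Rn7s2 and Rpph1. For Rnu1a1, the U1 small nuclear RNA, it was WT 2 (2.47, 2.74 and 0.841 CPM in WT, 0.413, 0.601 and 0.321 CPM in KO). The part of poly(A) selection in each library was not tested. The call of Rpph1 was lost with WT 3 as the lone control (edgeR adjusted p 0.0604).

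**Figure D2:**
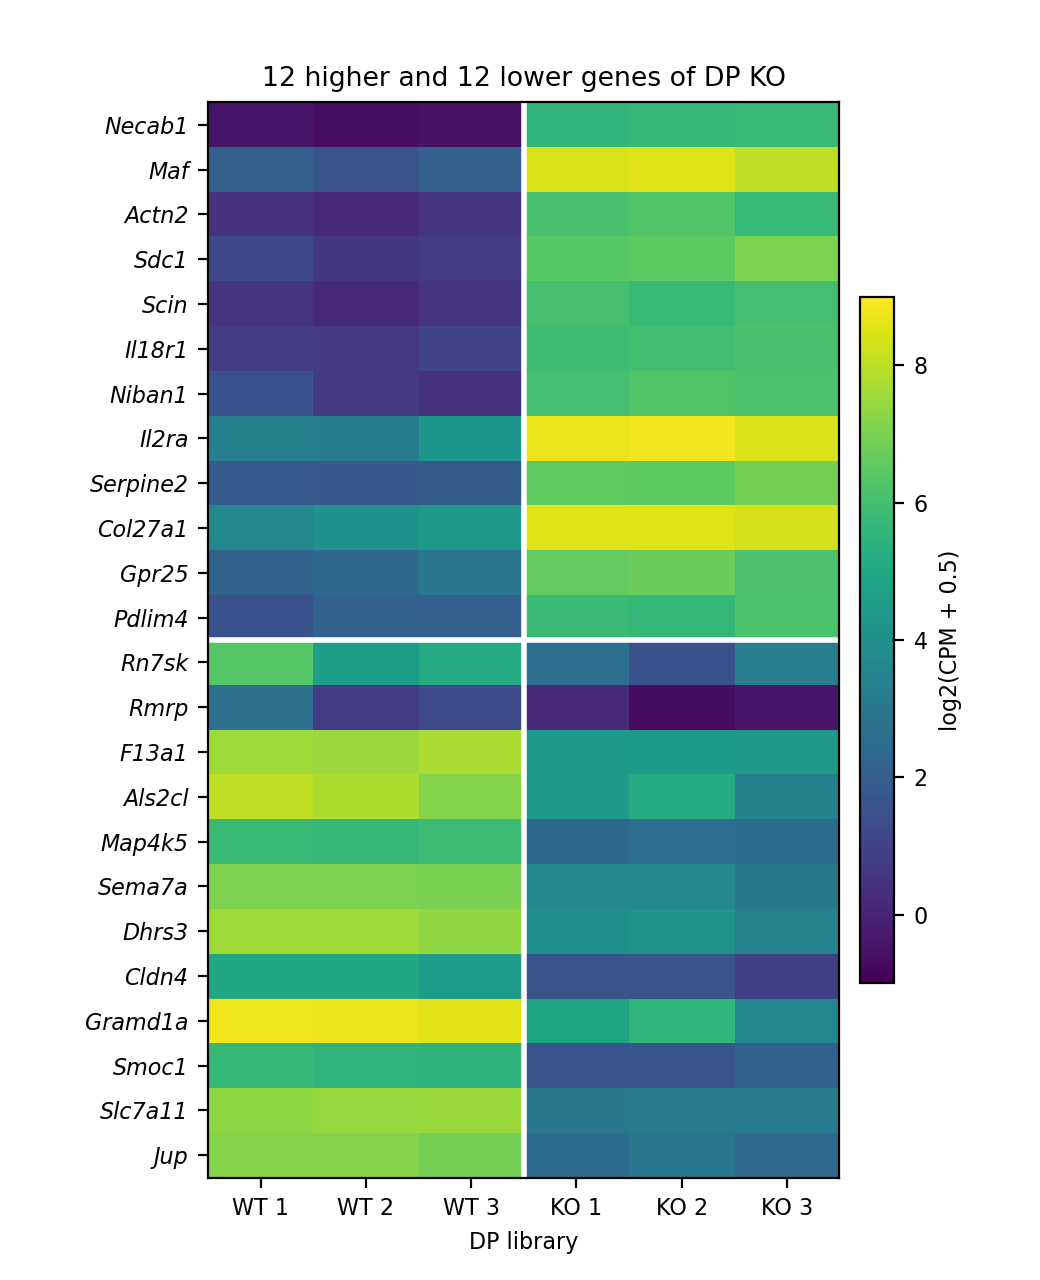
The heat map shows log2(CPM + 0.5) in each of the 6 DP libraries (columns) for the 12 rising and the 12 falling genes named above (rows), ordered by log2 fold change. The 3 libraries of a genotype resemble each other in nearly every row, with the widest spread within a genotype in Rmrp, Gramd1a and Rn7sk.

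The KO effect of most of these genes was not the same in the CD4 libraries of the study. Across 18431 genes tested with all 12 libraries, 27.8% differed in KO effect between CD4 and DP (5116 genes, edgeR interaction, adjusted p under 0.05). Of the 24 genes above, 17 did. Dhrs3 and Sema7a (-3.64 and -3.61 in DP) had log2 fold changes of -0.26 and -0.24 in CD4, neither of which passed the test there. Niban1 rose by 1.51 and Il18r1 by 2.00 on the log2 scale in CD4, against 5.54 and 5.66 in DP. The 7 genes whose effects were not called different were Necab1, Sdc1, Serpine2, Col27a1, Gpr25, Map4k5 and Als2cl. Among these, Serpine2 was called with the replicate number as a block (CD4 effect minus DP effect -0.65 on the log2 scale, edgeR adjusted p = 0.0369). A missed threshold does not show that these effects were equal.

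Among genes that define the DP stage, 11 of 14 tested fell and 1 rose (median log2 fold change -0.81). The direction was shared by genes of different roles. Ptcra, the pre-T cell receptor alpha chain, was at 31.7, 34.2 and 33.7 CPM in WT and 5.93, 6.76 and 4.45 CPM in KO (-2.53 ± 0.15). Rmnd5a, a ubiquitin ligase subunit next to Cd8a, was at 1554, 1677 and 1649 CPM in WT and 603, 556 and 586 CPM in KO (-1.48 ± 0.068). Dntt, the polymerase that adds bases at receptor gene junctions, was at 2109, 2076 and 1784 CPM in WT and 1217, 1162 and 1296 CPM in KO (-0.70 ± 0.083). Here the KO libraries lay below every WT library. Of 15 genes of the CD4 lineage and of mature thymocytes, 6 rose and 3 fell, so the list did not move one way. Gata3, the factor that directs CD4 commitment, was at 112, 105 and 113 CPM in WT and 349.9, 383 and 325 CPM in KO (1.68 ± 0.081). Of 16 genes of innate-like and killer lymphocytes, 10 rose and 0 fell (median 1.58), with 6 of its 9 members of at least 1 CPM per kilobase rising. Rora, which directs innate lymphoid fates, was at 5.496, 5.001 and 5.62 CPM in WT and 27.2, 27.9 and 48.2 CPM in KO (2.68 ± 0.22). Kit, the stem cell factor receptor of progenitors, rose by 1.54 on the log2 scale, whereas Cd44, the hyaluronan receptor, was at 7.28, 8.38 and 11.6 CPM in WT and 4.48, 4.85 and 3.28 CPM in KO (-1.10 ± 0.21). Of the regulatory T cell genes, 3 of 14 rose and 2 fell, with Ctla4 at 1.70, 1.81 and 2.96 CPM in WT and 5.62, 6.73 and 16.1 CPM in KO and Nrp1 at 51.0, 64.9 and 65.2 CPM in WT and 35.6, 31.5 and 30.7 CPM in KO. Rising DP stage genes numbered 0 with WT 3 as the lone control, 2 without KO 3 and 0 without WT 2. Falling CD4 lineage and mature genes numbered 1 without KO 1 and 5 without KO 2. Falling innate-like and killer lymphocyte genes numbered 1 without KO 2 or WT 1. Falling regulatory T cell genes numbered 1 with WT 3 as the lone control and 1 without WT 1 or WT 2. The call of Ctla4 was lost with WT 3 as the lone control (edgeR adjusted p 0.168).

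The receptor loci, counted as whole-locus features in the table, moved in different directions. Tcrg, the gamma locus on chromosome 13, was at 8.32, 8.13 and 9.02 CPM in WT and 492, 442 and 355 CPM in KO (5.67 ± 0.14, edgeR adjusted p = 2.29e-08). Tcra fell from 591, 559 and 559 CPM to 288, 286 and 226 CPM (-1.09 ± 0.098), and Tcrb was at 1255, 1346 and 1544 CPM in WT and 2619, 2736 and 2039 CPM in KO (0.83 ± 0.12). Markers of gamma-delta T cells summed to between 1.97 and 2.62 CPM in WT and between 4.40 and 5.96 CPM in KO. Of these markers, Sox13 rose, and Trdc and Trdv4 were at 0 in all 6 libraries. Trac, Trbc1 and Trbc2, single genes of loci counted as a whole, were at 0 too, so these values may come from the annotation. Only 5 of the 8 listed markers were in the table, without the constant genes of the gamma locus. The sum therefore says little about the number of gamma-delta T cells. The part of such cells in the level of Tcrg was not tested. Amph, which lies beside the gamma locus and encodes a membrane-curving protein of endocytosis, rose with it, from 0.113, 0.228 and 0.133 CPM to 2.41, 3.46 and 3.19 CPM (4.19 ± 0.35). The call of Tcrb was lost with WT 3 as the lone control (edgeR adjusted p 0.0570).

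Of 17 genes of receptor gene recombination and end joining, 7 fell and 3 rose. The falling genes included, besides the recombinase itself, the nuclease Artemis (Dclre1c), at 99.4, 95.3 and 103 CPM in WT and 57.5, 53.8 and 42.1 CPM in KO (-0.96 ± 0.11). The log2 fold change was -2.03 ± 0.084 for Rag2 and -1.26 ± 0.077 for Rag1, which together form the recombinase. The rising genes were Poll, a gap-filling polymerase, Xrcc5, which encodes the Ku80 subunit, and the break-sensing kinase Atm. Of 21 genes of the antigen receptor complex and its proximal kinases, 14 fell and 3 rose (median -0.29). The surface receptors Cd2, Cd5 and Cd6 had the largest falls. Cd6, a scavenger receptor that binds ALCAM, was at 387, 368.1 and 371 CPM in WT and 134, 145 and 132 CPM in KO (-1.46 ± 0.069), and its relative Cd5, a brake on receptor signalling, was at 212, 184 and 203 CPM in WT and 44.4, 59.5 and 40.4 CPM in KO (-2.05 ± 0.14). Cd28, the co-stimulatory receptor, was at 209, 231 and 262 CPM in WT and 120.2, 122.7 and 106 CPM in KO (-1.01 ± 0.097). Within the complex, Cd3d was at 354, 318 and 308 CPM in WT and 165, 178 and 196 CPM in KO (-0.86 ± 0.086). The rising members were Csk, which inhibits the kinase LCK, the kinase Fyn and the adaptor Lcp2. Of 17 genes induced by receptor signals, 5 rose and 3 fell. Myc, a transcription factor of cell growth, was at 31.9, 30.1 and 37.2 CPM in WT and 139, 149.7 and 112 CPM in KO (2.02 ± 0.12), and Irf4 at 5.27, 5.33 and 6.99 CPM in WT and 12.9, 16.1 and 10.8 CPM in KO (1.19 ± 0.18). With WT 3 as the lone control, counts were 1 for rising recombination genes, 4 for falling recombination genes, 0 for rising receptor complex genes, 7 for falling receptor complex genes and 3 for rising activation response genes. The call of Irf4 was lost with WT 3 as the lone control (edgeR adjusted p 0.0724).

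The windows from 250 bases before to 50 bases after the annotated start are shown for 3 falling members of the receptor complex, because 10 of the 17 members with a window (58.8%) held the E-box CACCTG on either strand, against 17.6% of all 10257 windows of protein-coding genes tested. The 10 include Csk, which rose, and Cd3g, which was not called. The windows without a match included that of Nck1, which fell, and those of Fyn and Lcp2, which rose. CACCTG is the site preferred by E proteins. The windows come from RefSeq in GRCm38.p6, are written 5′ to 3′ along the gene, and have the E-box (CACCTG, or CAGGTG where it lies on the other strand) in capitals. They are Cd3d (chr9:44981536-44981835, plus strand), Cd5 (chr19:10738925-10739224, minus strand) and Cd247 (chr1:165788431-165788730, plus strand), which encodes the zeta chain.
Cd3d: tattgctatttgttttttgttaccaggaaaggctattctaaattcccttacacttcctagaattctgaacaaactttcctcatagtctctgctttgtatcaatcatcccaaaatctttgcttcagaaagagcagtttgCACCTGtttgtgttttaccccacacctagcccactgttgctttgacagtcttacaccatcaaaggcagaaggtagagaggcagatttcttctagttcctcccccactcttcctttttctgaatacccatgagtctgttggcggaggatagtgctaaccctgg
Cd5: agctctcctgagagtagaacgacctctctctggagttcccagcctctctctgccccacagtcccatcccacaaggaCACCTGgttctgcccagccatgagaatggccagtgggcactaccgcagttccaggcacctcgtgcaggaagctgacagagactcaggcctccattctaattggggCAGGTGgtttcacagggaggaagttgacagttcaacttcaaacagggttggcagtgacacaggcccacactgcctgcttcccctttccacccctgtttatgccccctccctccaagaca
Cd247: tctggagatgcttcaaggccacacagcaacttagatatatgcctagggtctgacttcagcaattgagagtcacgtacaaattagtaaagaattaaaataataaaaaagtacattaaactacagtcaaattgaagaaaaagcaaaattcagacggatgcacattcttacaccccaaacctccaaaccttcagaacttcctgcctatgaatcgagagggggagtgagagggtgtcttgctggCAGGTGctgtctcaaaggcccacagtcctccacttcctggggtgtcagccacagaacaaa
Among all windows, CACCTG stood in 14.6% of genes that rose, 21.6% of genes that fell and 17.6% of genes that were not called. A match describes the letters and shows no binding, and the motifs were chosen after the data were seen.

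Cytokine receptors were among the families with more rising members than the background. Of 46 tested, 18 rose and 8 fell (median 0.25). Ifngr1, the ligand-binding chain of the interferon gamma receptor, was at 421, 441 and 386 CPM in WT and 1804, 1863 and 1800.3 CPM in KO (2.13 ± 0.074). Il4ra, the chain shared by the interleukin 4 and 13 receptors, moved the other way, from 205, 203 and 205 CPM to 62.9, 72.7 and 66.2 CPM (-1.603 ± 0.073). Both chains of the interleukin 12 receptor, Il12rb1 and Il12rb2, and both of the interleukin 18 receptor rose, while the common gamma chain Il2rg and Il21r fell. Among 14 chemokine receptors, 3 rose and 2 fell. Ccr9, the receptor for the thymic chemokine CCL25, was at 912, 842 and 826 CPM in WT and 128, 148 and 168 CPM in KO (-2.54 ± 0.10). Receptors of effector cells were low in WT: Cxcr6 was at 2.01, 1.12 and 0.841 CPM in WT and 12.1, 9.79 and 5.98 CPM in KO (2.77 ± 0.35), and Cxcr3 at 0.769, 0.332 and 0.265 CPM in WT and 4.02, 3.54 and 2.22 CPM in KO (2.78 ± 0.40). The chemokine Ccl5 was at 2.10, 0.872 and 0.708 CPM in WT and 20.9, 16.1 and 11.51 CPM in KO (3.66 ± 0.37). Among G protein-coupled receptors for purines, lipids and unknown ligands, 21 of 73 rose and 10 fell. P2ry10, a receptor for lysophosphatidylserine, was at 138, 149 and 149.8 CPM in WT and 379, 380.0 and 416 CPM in KO (1.43 ± 0.072), Lpar4, a receptor for lysophosphatidic acid, at 1.29, 1.68 and 2.39 CPM in WT and 40.3, 46.0 and 25.8 CPM in KO (4.44 ± 0.27), and S1pr1, the receptor used for exit from the thymus, at 2.26, 2.53 and 1.55 CPM in WT and 8.55, 11.54 and 17.0 CPM in KO (2.51 ± 0.28). The adhesion receptor Adgrg1 fell from 56.5, 59.8 and 52.0 CPM to 14.3, 12.4 and 10.7 CPM (-2.17 ± 0.12). Falling cytokine receptors numbered 4 with WT 3 as the lone control and 5 without KO 1. Against WT 3 alone the counts were 12 for rising G protein-coupled receptors and 4 for falling G protein-coupled receptors.

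Co-signalling and adhesion receptors changed in both directions. Of 27 receptors of the SLAM, CD28 and B7 families, 6 rose and 6 fell. Cd226, an activating receptor for nectin-like ligands, was at 10.4, 7.97 and 10.2 CPM in WT and 78.1, 84.8 and 94.8 CPM in KO (3.18 ± 0.13). The homophilic receptors Slamf1 (66.9, 78.96 and 73.1 CPM in WT, 22.4, 22.9 and 20.5 CPM in KO) and Slamf6 (122, 121 and 127 CPM in WT, 76.5, 79.8 and 74.3 CPM in KO) fell. In the TNF family, 8 of 31 rose and 4 fell, with the death receptor Fas at 77.7, 79.6 and 77.8 CPM in WT and 35.1, 38.5 and 42.9 CPM in KO (-1.01 ± 0.086). Of 22 integrins, 6 rose and 7 fell. Itgb7, the beta chain of gut homing, was at 28.8, 24.2 and 29.3 CPM in WT and 149, 166 and 122 CPM in KO (2.41 ± 0.13), while Itga6, a laminin receptor chain, was at 96.8, 104 and 99.0 CPM in WT and 32.9, 32.0 and 37.6 CPM in KO (-1.55 ± 0.083). Genes of the extracellular matrix and basement membrane fell in 10 of 33 cases and rose in 4. Most of the falling members were low in WT: among the 10 members of at least 1 CPM per kilobase, 4 rose and 4 fell. Fbln1, a matrix glycoprotein, was at 9.84, 9.34 and 7.03 CPM in WT and 0.909, 1.09 and 1.22 CPM in KO (-3.04 ± 0.21). Sdc4, a syndecan, rose by 3.67 on the log2 scale from a WT level that varied between libraries (1.42, 4.15 and 13.3 CPM) to 74.7, 72.5 and 75.6 CPM in KO. Guidance genes (semaphorins, plexins, ephrins and their receptors) rose in 10 and fell in 11 of 34 cases, with Sema4d, a semaphorin of lymphocytes, at 266, 302 and 288 CPM in WT and 178, 165 and 149 CPM in KO (-0.80 ± 0.085) and Plxdc1 at 93.6, 85.9 and 87.5 CPM in WT and 35.5, 35.4 and 29.6 CPM in KO (-1.41 ± 0.091). In the Ly6 family, 4 of 9 rose and 2 fell, led by Ly6c1, an antigen of memory and effector T cells, at 0.792, 1.31 and 1.68 CPM in WT and 13.5, 17.2 and 16.7 CPM in KO (3.70 ± 0.24). Rising TNF family genes numbered 1 with WT 3 as the lone control and 5 without KO 1 or WT 2. Falling TNF family genes numbered 1 with WT 3 as the lone control and 2 without WT 1 or WT 2. Falling integrins numbered 1 with WT 3 as the lone control, 3 without KO 1 or WT 2 and 4 without WT 1 or WT 3. Rising guidance genes numbered 3 with WT 3 as the lone control and 5 without WT 2. The lone control WT 3 gave counts of 2 for rising co-signalling receptors, 2 for rising integrins, 6 for falling guidance genes, 2 for rising Ly6 family genes and 1 for falling Ly6 family genes.

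Enzymes that build surface glycans rose more often than they fell. Of 14 sialyltransferases, 5 rose and 1 fell, with St6gal1, which caps N-glycans, at 52.5, 43.5 and 51.3 CPM in WT and 85.1, 95.1 and 82.8 CPM in KO (0.84 ± 0.094). Of 59 other glycan enzymes, 19 rose and 9 fell. B4galt1, the main galactosyltransferase of N-glycans, was at 54.1, 61.3 and 65.0 CPM in WT and 143, 143 and 150.2 CPM in KO (1.28 ± 0.081). Hs6st1, which sulfates heparan chains, moved the other way, from 178, 174 and 174 CPM to 65.2, 68.1 and 68.8 CPM (-1.38 ± 0.063). Galnt3, which starts O-glycans, was near the level of 3 counts in WT (0.113, 0.0830 and 0.0442 CPM) and at 2.73, 3.15 and 2.91 CPM in KO. Falling sialyltransferases numbered 2 without KO 1, KO 2 or WT 3. Counts against the lone control WT 3 were 3 for rising sialyltransferases, 6 for rising glycan enzymes and 5 for falling glycan enzymes.

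Ion channels fell more often than they rose. Of 24 potassium channel genes, 8 fell and 4 rose, and of 40 calcium, sodium and TRP channel genes, 13 fell and 5 rose (median -0.59). Among the 21 of the latter with at least 1 CPM per kilobase, 8 fell and 5 rose. Kcnh2, the hERG potassium channel, was at 120.2, 120.2 and 102 CPM in WT and 18.7, 20.1 and 12.8 CPM in KO (-2.73 ± 0.16). Itpr1, the receptor that releases calcium from the endoplasmic reticulum, was at 171, 182 and 177 CPM in WT and 69.2, 65.7 and 62.6 CPM in KO (-1.43 ± 0.069). Scn4b, a beta subunit of voltage-gated sodium channels, was at 17.8, 18.3 and 19.2 CPM in WT and 1.39, 2.17 and 1.42 CPM in KO (-3.47 ± 0.18). Mcoln2, a lysosomal cation channel, rose from 5.16, 5.31 and 5.26 CPM to 28.2, 28.3 and 28.8 CPM (2.44 ± 0.095). Transporters showed no common direction. Amino acid transporters rose in 7 and fell in 7 of 31 cases: Slc7a5 and Slc38a1, which import large neutral amino acids and glutamine, rose by 0.79 and 0.80 on the log2 scale, against the fall of Slc7a11 given above. Of 29 ABC transporters, 11 fell and 6 rose. Slc11a2, which imports iron, was at 16.2, 18.5 and 29.9 CPM in WT and 155, 158 and 136 CPM in KO (2.81 ± 0.20), and Slc28a2, which imports nucleosides, at 106, 104 and 98.6 CPM in WT and 50.7, 52.5 and 43.6 CPM in KO (-1.07 ± 0.085). Falling ABC transporters numbered 3 with WT 3 as the lone control, 6 without KO 1 and 7 without KO 3, WT 1 or WT 2. Where WT 3 was the lone control, the counts were 2 for rising potassium channels, 5 for falling potassium channels, 2 for rising calcium, sodium and TRP channels, 7 for falling calcium, sodium and TRP channels, 3 for falling amino acid transporters and 2 for rising ABC transporters.

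Signalling lists with a lean towards lower levels were those of the diacylglycerol and NF-kB branches. Of 22 genes of protein kinase C, diacylglycerol kinases and RasGRP factors, 9 fell and 3 rose. Dgkd and Dgke, which remove diacylglycerol, were at 577, 631 and 624 CPM and 422, 441 and 404 CPM in WT and at 314, 327 and 342 CPM and 255, 224 and 256 CPM in KO. Prkca, a conventional kinase of the family, was at 45.7, 47.4 and 48.9 CPM in WT and 122.9, 112 and 119 CPM in KO (1.32 ± 0.070). No gene of the NF-kB list rose and 5 of 26 fell: Traf1, Nfkbia, Tnip1, Rel and Traf2. Nfkbia, the inhibitor that NF-kB itself induces, was at 302, 227 and 279 CPM in WT and 113, 128 and 136 CPM in KO (-1.10 ± 0.11), and Traf1 at 26.9, 26.1 and 20.9 CPM in WT and 6.70, 8.27 and 4.54 CPM in KO (-1.92 ± 0.20). The TGF-beta and BMP list leaned the other way, with 11 of 28 rising and 1, the co-receptor Tgfbr3, falling. Tgfbr2, the receptor that binds TGF-beta, was at 52.7, 55.1 and 55.5 CPM in WT and 102, 109.9 and 115 CPM in KO (1.00 ± 0.072), and the signal transducer Smad3 at 82.9, 79.95 and 85.0 CPM in WT and 140.4, 146 and 148 CPM in KO (0.81 ± 0.064). Rising NF-kB pathway genes numbered 1 without WT 1. Falling TGF-beta pathway genes numbered 2 with the replicate block and 2 without KO 3 or WT 2. With WT 3 as the lone control, counts were 1 for rising PKC and DGK genes, 5 for falling PKC and DGK genes and 6 for rising TGF-beta pathway genes.

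JAK-STAT genes rose in 8 and fell in 4 of 23 cases. Stat4, the transducer of interleukin 12, was at 31.3, 33.2 and 34.2 CPM in WT and 93.6, 95.4 and 88.0 CPM in KO (1.49 ± 0.075). Cish, which cytokine signals induce, rose from 1.15, 0.851 and 1.28 CPM to 6.81, 6.29 and 3.71 CPM (2.38 ± 0.28), while Socs1, another inhibitor of the pathway, fell from 159.6, 125 and 130.4 CPM to 45.4, 53.7 and 66.7 CPM (-1.33 ± 0.14). NOTCH genes rose in 8 and fell in 5 of 29 cases, with the ubiquitin ligase Dtx1 at 17.6, 15.4 and 28.2 CPM in WT and 87.9, 110.3 and 60.4 CPM in KO (2.09 ± 0.26). WNT genes rose in 6 and fell in 4 of 27 cases, and here the largest rise was in a ligand: Wnt8b went from 7.71, 10.1 and 12.1 CPM to 124, 129 and 95.6 CPM (3.56 ± 0.18). Axin2 and Nkd1, feedback inhibitors that the pathway induces, rose by 0.96 and 2.95 on the log2 scale. In the PI3K list, 5 of 34 rose and 7 fell. Inpp5d, a phosphatase of the lipid that PI3K makes, was at 144, 140.4 and 142 CPM in WT and 233, 235.996 and 213 CPM in KO (0.68 ± 0.068). Of the receptor tyrosine phosphatases, Ptprf was at 404, 422 and 451 CPM in WT and 129.6, 119.8 and 126 CPM in KO (-1.77 ± 0.072), and Dusp4, a phosphatase of MAP kinases, at 26.6, 24.5 and 26.0 CPM in WT and 2.68, 4.43 and 4.93 CPM in KO (-2.69 ± 0.20). Arhgef10l, a guanine nucleotide exchange factor, rose from 1.40, 0.892 and 1.37 CPM to 44.6, 52.9 and 41.7 CPM (5.28 ± 0.18). Falling NOTCH pathway genes numbered 2 with WT 3 as the lone control and 3 without KO 1 or WT 1. Falling WNT pathway genes numbered 0 with WT 3 as the lone control, 2 without KO 1, KO 2 or WT 1 and 1 without WT 3. Rising PI3K pathway genes numbered 2 with WT 3 as the lone control, 1 without KO 1 and 2 without KO 2, WT 1, WT 2 or WT 3. Against WT 3 alone the counts were 5 for rising JAK-STAT genes, 2 for falling JAK-STAT genes, 5 for rising NOTCH pathway genes and 3 for falling PI3K pathway genes.

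Transcription factors changed in both directions. Zinc finger genes of the Zfp series rose in 56 and fell in 28 of 342 cases, shares at or under the background. Bcl6, a repressor high in DP cells, was at 199, 195 and 204 CPM in WT and 56.4, 63.0 and 48.6 CPM in KO (-1.83 ± 0.096). Ets2 was at 771, 769 and 815 CPM in WT and 213, 215 and 199 CPM in KO (-1.91 ± 0.068), and Myb, a factor needed by DP cells, at 1195, 1129 and 1296 CPM in WT and 662, 684 and 637 CPM in KO (-0.87 ± 0.073). Tcf7, which encodes TCF1, was at 5045, 4984 and 4628 CPM in WT and 3692, 3716 and 3276 CPM in KO (-0.46 ± 0.075). In these 4 factors no KO library reached the WT range. Prdm1, the repressor BLIMP1, was at 2.06, 1.83 and 2.08 CPM in WT and 17.8, 17.8 and 12.4 CPM in KO (3.02 ± 0.18), and Runx2 at 2.28, 1.598 and 2.17 CPM in WT and 9.06, 7.80 and 8.71 CPM in KO (2.09 ± 0.18). KLF and SP factors fell in 7 and rose in 2 of 20 cases, with Klf13 at 495, 548 and 629.6 CPM in WT and 331, 324 and 339 CPM in KO (-0.75 ± 0.090). Homeobox and POU factors rose in 10 and fell in 4 of 37 cases. The neighbours Hoxa3, Hoxa5, Hoxa6 and Hoxa7 were among those that rose, and the list's falling members include Satb1 itself. In the HMG-box family, 7 of 21 fell, led by Tox3 (7.85, 5.42 and 7.30 CPM in WT, 0.265, 0.237 and 0.183 CPM in KO). Rising Zfp zinc finger genes numbered 25 with WT 3 as the lone control and 37 without WT 2. Falling Zfp zinc finger genes numbered 4 with WT 3 as the lone control, 18 without WT 1 and 14 without WT 2. Rising KLF and SP factors numbered 1 with WT 3 as the lone control, 4 with the replicate block, 4 without KO 1, KO 2 or WT 3 and 1 without WT 1 or WT 2. Falling HMG-box factors numbered 1 with WT 3 as the lone control and 4 without WT 1. The lone control WT 3 gave a count of 4 for rising homeobox and POU factors. The call of Tcf7 was lost with WT 3 as the lone control (edgeR adjusted p 0.0794).

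Genes of the circadian clock were a family in which most members moved. Of 21 tested, 13 rose and 2 fell (median 0.90). Clock, the activating subunit, was at 17.9, 19.0 and 21.3 CPM in WT and 43.1, 45.4 and 42.0 CPM in KO (1.17 ± 0.093), while Arntl, which encodes its partner BMAL1, fell. The repressors Nr1d1 and Nr1d2 were at 5.22, 5.98 and 6.02 CPM and 35.5, 34.1 and 42.1 CPM in WT and at 20.6, 20.1 and 23.6 CPM and 61.7, 67.1 and 79.8 CPM in KO. Hlf, a PAR leucine zipper factor driven by the clock, went from 0.859, 0.685 and 0.973 CPM to 21.6, 25.1 and 29.0 CPM (4.94 ± 0.18), and its relatives Dbp and Tef rose too. The period genes Per2 and Per3 rose and the kinase Csnk1e fell. The time of day of each collection is not given in the sources used here, and its part in these values was not tested. The E-box of the clock and MYC, CACGTG, stood in 4 of the 16 windows of the list (25%) and in 9.95% of all windows. These 4 were the windows of Ciart, Cry1, Per1 and Tef, and only Tef was called (log2 fold change 0.52). The count against the lone control WT 3 was 7 for rising circadian clock genes.

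The lists of chromatin regulators leaned in different directions. The largest change in the list of remodellers was in Chd3, a subunit of the NuRD complex, at 189, 181 and 193 CPM in WT and 1063, 1031 and 998 CPM in KO (2.46 ± 0.068, edgeR adjusted p = 4.12e-08). Smarca4, the ATPase BRG1 of the SWI/SNF complex, was at 663, 695 and 693 CPM in WT and 437, 404 and 419.9 CPM in KO (-0.70 ± 0.065). Of 56 remodellers, 7 rose and 9 fell, under the background in the rising direction. Smc4, a condensin ATPase, was at 995, 999 and 998 CPM in WT and 1951, 1895 and 2144 CPM in KO (1.00 ± 0.070), while 9 of 34 genes of cohesin, condensin and lamina fell. Histone acetyl- and methyltransferases rose in 13 and fell in 4 of 56 cases, with the arginine methyltransferases Prmt3 and Carm1 rising by 0.82 and 0.82 on the log2 scale. Histone demethylases leaned the other way: 13 of 27 fell and 4 rose, and Phf2, a demethylase of H3K9, was at 430.3, 479 and 451 CPM in WT and 282, 259.5 and 285 CPM in KO (-0.72 ± 0.072). Of 18 deacetylases and sirtuins, 3 rose and 3 fell. Within one class, Hdac5 fell from 59.2, 57.7 and 59.2 CPM to 24.9, 29.0 and 26.6 CPM and Hdac4 rose from 20.8, 22.7 and 25.3 CPM to 48.6, 44.8 and 39.96 CPM. Aebp2, a cofactor of polycomb complex PRC2, was at 109.6, 127 and 142 CPM in WT and 299, 277 and 322 CPM in KO (1.24 ± 0.10). Falling cohesin, condensin and lamina genes numbered 2 with WT 3 as the lone control, 4 without KO 1, KO 2 or WT 2, 15 without KO 3 and 5 without WT 3. Falling histone acetyl- and methyltransferases numbered 1 with WT 3 as the lone control, 1 without KO 1, KO 2, WT 1 or WT 3 and 2 without WT 2. Rising histone demethylases numbered 2 with WT 3 as the lone control and 2 without WT 2. Falling histone demethylases numbered 6 with WT 3 as the lone control, 6 without KO 1 and 7 without KO 2 or WT 2. Where WT 3 was the lone control, the counts were 2 for falling remodellers, 1 for rising cohesin, condensin and lamina genes, 8 for rising histone acetyl- and methyltransferases and 1 for falling deacetylases and sirtuins.

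Most histone genes that passed the test fell, and the balance was not kept with WT 3 as the lone control, where 7 rose and 5 fell (median -0.35). Of 75 tested, 26 fell and 1, the replication-independent linker H1f0, rose (median -0.51). Most histone mRNAs end in a stem-loop and carry no poly(A) tail. H1f10 was at 16.5, 16.2 and 13.8 CPM in WT and 5.22, 4.90 and 8.02 CPM in KO (-1.37 ± 0.19), H1f1 at 6.17, 4.13 and 4.29 CPM in WT and 1.32, 1.40 and 1.72 CPM in KO (-1.72 ± 0.23), and H1f3 at 4.66, 2.72 and 4.601 CPM in WT and 1.21, 1.31 and 1.67 CPM in KO (-1.51 ± 0.27). Structural RNAs without a poly(A) tail moved in the same direction (335, 83.1 and 145 CPM in WT, 38.4, 17.0 and 33.0 CPM in KO). Their part in the fall of histone genes was not tested. Falling histone genes numbered 16 without KO 2 and 14 without WT 1.

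Genes of fatty acid synthesis, desaturation and oxidation that passed the test all rose. Of 32 tested, 15 rose and 0 fell (median 0.27). Elovl5 and Fads2, which elongate and desaturate polyunsaturated fatty acids, rose, with Elovl5 at 96.9, 98.2 and 102 CPM in WT and 218, 213 and 214 CPM in KO (1.12 ± 0.062). Acadl and Cpt1a, enzymes of beta-oxidation, rose as well as Acaca and Fasn, enzymes of synthesis, and Acadl was at 39.1, 42.2 and 43.4 CPM in WT and 77.3, 75.2 and 94.8 CPM in KO (0.99 ± 0.10). Genes of nucleotide and polyamine synthesis rose in 16 and fell in 5 of 38 cases. Cad, which starts pyrimidine synthesis, was at 69.5, 69.5 and 81.7 CPM in WT and 152, 136 and 137 CPM in KO (0.95 ± 0.086), and Srm, which makes spermidine, at 18.6, 13.5 and 20.2 CPM in WT and 41.9, 43.0 and 38.6 CPM in KO (1.25 ± 0.14). Serine, one-carbon and other ATF4-driven genes rose in 11 and fell in 2 of 24 cases, with Shmt2, the mitochondrial serine hydroxymethyltransferase, at 67.8, 63.6 and 65.4 CPM in WT and 129, 126 and 113 CPM in KO (0.91 ± 0.074). The falling members were Slc7a11 and Ddit4. Rising nucleotide and polyamine genes numbered 6 with WT 3 as the lone control, 9 without WT 1 and 10 without WT 2. Falling nucleotide and polyamine genes numbered 3 with WT 3 as the lone control and 3 without WT 2. With WT 3 as the lone control, counts were 9 for rising fatty acid genes and 7 for rising ATF4 and one-carbon genes.

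In glycolysis, 7 of 26 genes rose and 5 fell, and the forms of lactate dehydrogenase moved in opposite directions. Ldha was at 362, 358 and 327 CPM in WT and 583, 588 and 566 CPM in KO (0.73 ± 0.068), and Ldhb at 414, 401 and 372 CPM in WT and 139, 151 and 156 CPM in KO (-1.41 ± 0.076). Pdk1, which inhibits pyruvate dehydrogenase, fell from 223, 228 and 239 CPM to 93.6, 103 and 85.9 CPM (-1.29 ± 0.080). Respiratory chain and ATP synthase genes rose in 17 and fell in 2 of 122 cases, so that the rising share (13.9%) was near the background and the falling share (1.64%) under it. Redox genes split: 14 of 39 rose and 10 fell, with Gsr, which regenerates glutathione, at 47.9, 46.4 and 48.8 CPM in WT and 73.4, 71.6 and 72.8 CPM in KO (0.61 ± 0.068) and Mgst2 at 35.1, 32.0 and 33.4 CPM in WT and 16.3, 18.6 and 15.7 CPM in KO (-0.99 ± 0.096). Cholesterol genes rose in 7 and fell in 4 of 33 cases. Lysosomal genes rose in 9 and fell in 9 of 57 cases, among them Psap, the precursor of saposins, at 1201, 1243 and 1128 CPM in WT and 760.2, 781 and 772 CPM in KO (-0.63 ± 0.066). Rising respiratory chain genes numbered 1 with WT 3 as the lone control, 9 without KO 2, WT 1 or WT 3 and 6 without WT 2. Falling respiratory chain genes numbered 0 with WT 3 as the lone control, 6 with the replicate block, 1 without KO 2 or WT 1 and 6 without WT 3. Rising glutathione and thioredoxin genes numbered 5 with WT 3 as the lone control and 9 without WT 2. Falling glutathione and thioredoxin genes numbered 4 with WT 3 as the lone control, 4 without KO 1, 6 without WT 1 and 5 without WT 2. Rising cholesterol genes numbered 1 with WT 3 as the lone control, 4 without KO 1 or WT 3 and 3 without WT 1. Falling cholesterol genes numbered 2 without KO 1 or KO 3. Falling lysosomal hydrolases and cathepsins numbered 5 with WT 3 as the lone control and 5 without KO 1 or WT 1. Against WT 3 alone the counts were 4 for rising glycolysis genes, 3 for falling glycolysis genes and 4 for rising lysosomal hydrolases and cathepsins.

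Most genes of cytosolic ribosomal proteins rose by small amounts. Of 86 genes of cytosolic ribosomal proteins, 72 rose and 0 fell (median 0.39), the rises lying between 0.23 and 0.60 on the log2 scale. Rps2 was at 647, 630.4 and 593 CPM in WT and 909.8, 973 and 918 CPM in KO (0.58 ± 0.067), and Rpl10a at 448, 417 and 411 CPM in WT and 606, 667 and 658 CPM in KO (0.60 ± 0.070). Many ribosomal protein genes have processed copies in the genome, and how reads of these were assigned is not given in the sources used here. Translation factors rose in 22 and fell in 1 of 65 cases (median 0.19), the exception being Eif2ak3, the endoplasmic reticulum stress kinase PERK, at 93.2, 88.6 and 102 CPM in WT and 58.2, 62.2 and 67.8 CPM in KO (-0.59 ± 0.085). Host genes of small nucleolar RNAs, which guide ribosomal RNA modification, rose in 8 and fell in 1 of 17 cases, with Zfas1 at 35.0, 30.8 and 32.4 CPM in WT and 50.6, 66.2 and 59.1 CPM in KO (0.84 ± 0.11). Mitochondrial ribosomal protein genes rose in 21 and fell in 2 of 78 cases. Proteasome genes rose in 12 and fell in 1 of 49 cases, and the interferon-inducible subunits Psmb8, Psmb9, Psmb10, Psme1 and Psme2 were among those that rose. Psmb10 was at 43.2, 41.6 and 45.7 CPM in WT and 79.2, 84.0 and 71.0 CPM in KO (0.84 ± 0.085). The mitochondrial chaperones Hspa9, Hspd1 and Hspe1 rose by 0.58, 0.59 and 0.61 on the log2 scale. No gene of the splicing factor list rose and 10 of 59 fell, but 6 of those were under 1 CPM per kilobase: among the 50 above it, 4 fell. Rising ribosomal protein genes numbered 35 with WT 3 as the lone control and 46 without WT 2. Rising translation factors numbered 5 with WT 3 as the lone control, 14 without WT 1 and 13 without WT 2. Falling translation factors numbered 3 without KO 3 and 2 without WT 3. Rising mitochondrial ribosomal protein genes numbered 7 with WT 3 as the lone control, 13 without KO 2 and 11 without WT 2. Falling mitochondrial ribosomal protein genes numbered 0 with WT 3 as the lone control, 1 with the replicate block and 1 without KO 1, KO 2, KO 3, WT 1 or WT 2. Rising proteasome genes numbered 2 with WT 3 as the lone control and 7 without WT 1 or WT 2. Falling proteasome genes numbered 0 with WT 3 as the lone control, 0 without KO 1, KO 2, WT 1 or WT 2 and 3 without WT 3. Rising splicing factors numbered 1 without KO 2. Falling splicing factors numbered 2 with WT 3 as the lone control, 5 without KO 1, WT 1 or WT 3 and 6 without KO 2. The lone control WT 3 gave a count of 1 for rising snoRNA host genes.

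Few genes of DNA replication passed the test, and those of mitosis were called or not with the choice of libraries. Of 39 DNA replication genes, 1 rose and 3 fell, under the background, with Mcm2 at 275, 310.1 and 281 CPM in WT and 263, 222 and 241 CPM in KO. Of 39 genes of mitosis, 8 fell and 0 rose (median -0.29). Cdc20, the activator of the anaphase-promoting complex, was at 203, 219 and 185 CPM in WT and 140.0, 129 and 165 CPM in KO (-0.48 ± 0.10). Among the regulators of G1, Cdk6, a kinase that starts the cycle, was at 92.6, 93.5 and 90.03 CPM in WT and 414, 347 and 352 CPM in KO (2.01 ± 0.085), whereas its partner Ccnd3, the D cyclin of DP expansion, was at 1055, 1138 and 973 CPM in WT and 483, 418 and 436 CPM in KO (-1.24 ± 0.085). E2f2, an activating E2F factor, fell from 598, 658 and 627 CPM to 285, 224 and 298 CPM (-1.22 ± 0.11). Over the list, 4 of 30 rose and 9 fell. In the BCL2 family, 4 of 19 rose and 4 fell. Bcl2l1, which encodes the survival factor BCL-XL of DP cells, was at 281, 295 and 272 CPM in WT and 196, 199.9 and 227 CPM in KO (-0.45 ± 0.077). The death inducer Bcl2l11 (BIM) was at 59.98, 61.8 and 91.5 CPM in WT and 125, 132 and 134 CPM in KO (0.88 ± 0.15), and Bbc3 (PUMA) at 21.1, 20.9 and 28.9 CPM in WT and 8.88, 12.5 and 9.88 CPM in KO (-1.18 ± 0.17). Caspase and death receptor genes rose in 9 and fell in 4 of 27 cases. Rising DNA replication genes numbered 0 with WT 3 as the lone control, 0 without KO 1, KO 3, WT 1 or WT 2 and 2 without KO 2. Falling DNA replication genes numbered 0 with WT 3 as the lone control and 1 without KO 2, WT 1 or WT 2. Rising mitosis genes numbered 1 without KO 2. Falling mitosis genes numbered 0 with WT 3 as the lone control, 1 without KO 1, KO 2 or WT 2, 28 without KO 3 and 3 without WT 1 or WT 3. Rising BCL2 family genes numbered 1 with WT 3 as the lone control, 2 without KO 1, KO 2 or WT 2 and 1 without WT 1. Rising caspase and death receptor genes numbered 1 with WT 3 as the lone control and 5 without WT 1 or WT 2. Falling caspase and death receptor genes numbered 1 with WT 3 as the lone control and 2 without KO 1 or KO 2. Counts against the lone control WT 3 were 1 for rising G1 genes, 4 for falling G1 genes and 2 for falling BCL2 family genes. The calls of Cdc20 and Bcl2l1 were lost with WT 3 as the lone control (edgeR adjusted p 0.0947 to 0.189). Mcm2 lost its call with WT 3 as the lone control, without KO 2, KO 3, WT 1, WT 2 or WT 3, with no low-count filter and with the replicate block (highest adjusted p 0.320).

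Cytoskeletal genes changed in both directions. Coro2b, which binds actin, was at 17.4, 17.0 and 15.3 CPM in WT and 83.5, 86.5 and 85.3 CPM in KO (2.36 ± 0.082). The filament-severing protein gelsolin (Gsn) fell from 137, 138 and 154 CPM to 45.8, 51.1 and 44.6 CPM (-1.601 ± 0.082), in contrast to its relative Scin. Of 30 myosins, 9 rose and 6 fell, with Myo1e at 0.679, 0.540 and 0.398 CPM in WT and 9.29, 9.99 and 10.9 CPM in KO (4.17 ± 0.21). Of 16 tubulins, 4 rose, among them Tubb2b from 247, 268 and 280.0 CPM to 691, 656 and 937 CPM (1.52 ± 0.13), and 5 fell. The intermediate filament protein vimentin (Vim) was at 83.6, 78.9 and 95.5 CPM in WT and 172, 212 and 204 CPM in KO (1.19 ± 0.10). Of 15 annexins and S100 proteins, 6 rose and 2 fell, led by Anxa6 with 111, 109.9 and 105 CPM in WT and 395, 442 and 363 CPM in KO (1.88 ± 0.085). Synapse and SNARE genes, most of them low in thymocytes, rose in 15 and fell in 19 of 65 cases. Falling myosins numbered 2 with WT 3 as the lone control and 3 without WT 1. Falling tubulins numbered 0 with WT 3 as the lone control, 2 without KO 1 and 3 without KO 2 or WT 1. Falling annexins and S100 proteins numbered 0 with WT 3 as the lone control and 1 without KO 1 or WT 1. Rising synapse and SNARE genes numbered 7 with WT 3 as the lone control and 9 without WT 2. Where WT 3 was the lone control, the counts were 4 for rising myosins and 4 for falling synapse and SNARE genes.

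Most killer cell granule genes and serpins rose. Of 10 granule genes, 8 rose and 0 fell (median 2.24), and the pore-forming protein Prf1 was at 3.78, 4.13 and 3.49 CPM in WT and 5.89, 4.63 and 2.93 CPM in KO, a difference that missed the threshold (edgeR adjusted p = 0.513). Srgn, the granule proteoglycan, was at 60.5, 57.6 and 65.2 CPM in WT and 112, 132 and 117 CPM in KO (0.98 ± 0.084), and Gzmb at 0.475, 0.436 and 0.531 CPM in WT and 6.76, 6.98 and 3.44 CPM in KO (3.59 ± 0.33). Of 11 serpins, 8 rose and 1 fell. Serpinb6b and Serpinb9, which inhibit granzymes inside the cell, were at 8.62, 9.30 and 9.73 CPM and 4.82, 3.90 and 4.65 CPM in WT and at 38.1, 38.4 and 39.9 CPM and 9.95, 9.55 and 10.4 CPM in KO. Markers of NK and NKT cells summed to at most 10.7 CPM in any KO library, as given above, and their part in these rises was not tested. MHC class I genes and their loading machinery rose in 14 and fell in 2 of 30 cases (median 0.35). B2m, the light chain of every class I molecule, was at 197, 179 and 221 CPM in WT and 609, 613 and 552 CPM in KO (1.57 ± 0.090), and Nlrc5, the factor that drives class I genes, at 19.8, 15.7 and 22.4 CPM in WT and 76.8, 80.7 and 41.8 CPM in KO (1.79 ± 0.23). The H2-Q genes that rose are near-identical copies and can share reads. In the class II pathway, 2 of 11 genes rose and 2 fell, and H2-DMa, which edits the peptides of class II, was at 14.6, 13.2 and 13.4 CPM in WT and 32.3, 33.9 and 29.7 CPM in KO (1.22 ± 0.095). Falling serpins numbered 0 with WT 3 as the lone control, 2 with the replicate block, 0 without KO 1, KO 2 or WT 1 and 2 without KO 3. Falling MHC class II genes numbered 0 with WT 3 as the lone control, 4 with the replicate block and 1 without KO 1, KO 2, KO 3, WT 1 or WT 2. With WT 3 as the lone control, counts were 5 for rising serpins and 5 for rising MHC class I genes.

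Most interferon-stimulated genes rose, and their number moved with single libraries. Of 44 tested, 30 rose and 1, Stat2, fell (median 1.05). Cmpk2, an antiviral kinase, was at 4.70, 3.67 and 7.61 CPM in WT and 24.6, 28.7 and 14.6 CPM in KO (2.12 ± 0.30). Oas3, which makes the second messenger that activates RNase L, was at 6.04, 5.73 and 10.9 CPM in WT and 36.0, 36.4 and 15.7 CPM in KO (1.99 ± 0.34), and Ifih1, the double-stranded RNA sensor MDA5, at 8.71, 8.59 and 15.2 CPM in WT and 24.9, 28.1 and 19.0 CPM in KO (1.17 ± 0.23). Of the rising members of the list, 20 had every KO library above every WT library. In these 3 genes the groups did not overlap, and WT 3, the highest WT library, and KO 3, the lowest KO library, lay closest to each other. The interferon-inducible GTPases rose in 10 and fell in 3 of 18 cases. Gvin1, which has near-identical copies, was at 8.32, 4.71 and 5.26 CPM in WT and 68.3, 73.5 and 27.7 CPM in KO (3.20 ± 0.37), and Gbp7 at 46.4, 44.8 and 50.1 CPM in WT and 106, 109.5 and 76.5 CPM in KO (1.05 ± 0.13). Gbp8, Gbp11 and Gbp4 fell, Gbp8 from 310.2, 283 and 289 CPM to 65.7, 65.0 and 45.9 CPM (-2.32 ± 0.13). Of 12 genes of the IRF family, 6 rose and 0 fell, with Irf7, which amplifies the interferon response, at 11.6, 11.8 and 19.2 CPM in WT and 38.4, 49.7 and 18.4 CPM in KO. For Irf7 the groups overlapped, since KO 3 lay below WT 3. Cytosolic and membrane sensors rose in 16 and fell in 2 of 31 cases. Ifi203 and Aim2, of the HIN-200 family of DNA sensors, were at 43.5, 44.9 and 64.2 CPM and 13.3, 12.04 and 12.1 CPM in WT and at 201, 211 and 148 CPM and 25.6, 26.5 and 24.8 CPM in KO. Rising interferon-stimulated genes numbered 1 with WT 3 as the lone control, 18 without KO 2, 16 without WT 1 and 13 without WT 2. Falling interferon-stimulated genes numbered 0 with WT 3 as the lone control and 0 without KO 1, KO 3, WT 1 or WT 2. Rising interferon regulatory factors numbered 0 with WT 3 as the lone control and 3 without WT 1 or WT 2. Falling interferon regulatory factors numbered 1 with the replicate block and 1 without WT 3. Falling sensors numbered 0 with WT 3 as the lone control, 1 without WT 1 and 4 without WT 3. Against WT 3 alone the counts were 5 for rising interferon-inducible GTPases and 6 for rising sensors. The calls of Oas3 and Ifih1 were lost with WT 3 as the lone control (edgeR adjusted p 0.114 to 0.131). Irf7 lost its call with WT 3 as the lone control and without WT 1 or WT 2 (highest adjusted p 0.302).

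The response element core of interferon genes, GAAANNGAA on either strand, stood in 18 of the 31 windows of the interferon-stimulated list (58.1%) and in 9 of the 10 windows of the GTPase list (90%), against 7.205% of all windows. The matched windows of these lists include that of Stat2, which fell. They also include those of Ifi44, Ifit1, Isg15, Rsad2, Samd9l, Igtp and Irgm2, which were not called. The window of Cmpk2, which rose, held no match. Over all tested genes with a window the core stood in 9.46% of those that rose, 6.33% of those that fell and 6.74% of those not called. The windows of 4 rising genes are shown because they carry this core, written 5′ to 3′ along the gene in GRCm38.p6 (RefSeq) with each match, or its reverse complement where it lies on the other strand, in capitals: Oas3 (chr5:120777610-120777909, minus strand), Ifih1 (chr2:62646206-62646505, minus strand), Irgm1 (chr11:48871371-48871670, minus strand) and Gbp5 (chr3:142496684-142496983, plus strand).
Oas3: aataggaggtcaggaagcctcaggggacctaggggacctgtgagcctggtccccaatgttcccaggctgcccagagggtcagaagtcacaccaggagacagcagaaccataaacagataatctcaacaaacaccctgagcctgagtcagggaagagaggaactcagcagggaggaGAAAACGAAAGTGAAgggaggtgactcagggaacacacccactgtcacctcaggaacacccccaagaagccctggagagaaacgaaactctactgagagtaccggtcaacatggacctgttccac
Ifih1: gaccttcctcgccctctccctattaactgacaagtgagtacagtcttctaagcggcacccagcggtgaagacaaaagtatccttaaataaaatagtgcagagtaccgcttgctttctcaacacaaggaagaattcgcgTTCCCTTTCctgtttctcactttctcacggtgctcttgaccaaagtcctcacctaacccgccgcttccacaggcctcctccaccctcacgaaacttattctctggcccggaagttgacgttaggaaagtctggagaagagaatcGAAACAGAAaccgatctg
Irgm1: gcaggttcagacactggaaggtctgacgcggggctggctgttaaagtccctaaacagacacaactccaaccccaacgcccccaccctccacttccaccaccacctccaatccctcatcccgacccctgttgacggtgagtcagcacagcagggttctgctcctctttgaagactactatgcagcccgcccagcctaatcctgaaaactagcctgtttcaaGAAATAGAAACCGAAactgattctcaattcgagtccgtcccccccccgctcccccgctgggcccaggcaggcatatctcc
Gbp5: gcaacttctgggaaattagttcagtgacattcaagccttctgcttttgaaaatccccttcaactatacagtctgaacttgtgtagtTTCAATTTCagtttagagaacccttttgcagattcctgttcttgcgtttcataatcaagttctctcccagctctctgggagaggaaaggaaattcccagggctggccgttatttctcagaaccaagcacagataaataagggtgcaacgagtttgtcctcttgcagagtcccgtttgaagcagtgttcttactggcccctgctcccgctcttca
In Oas3 and Irgm1 the capitals hold 2 overlapping matches. The window of Ifih1 holds 1 match on each strand, the second of them after the start site, and that of Gbp5 holds 1 on the other strand.

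**Figure D3:**
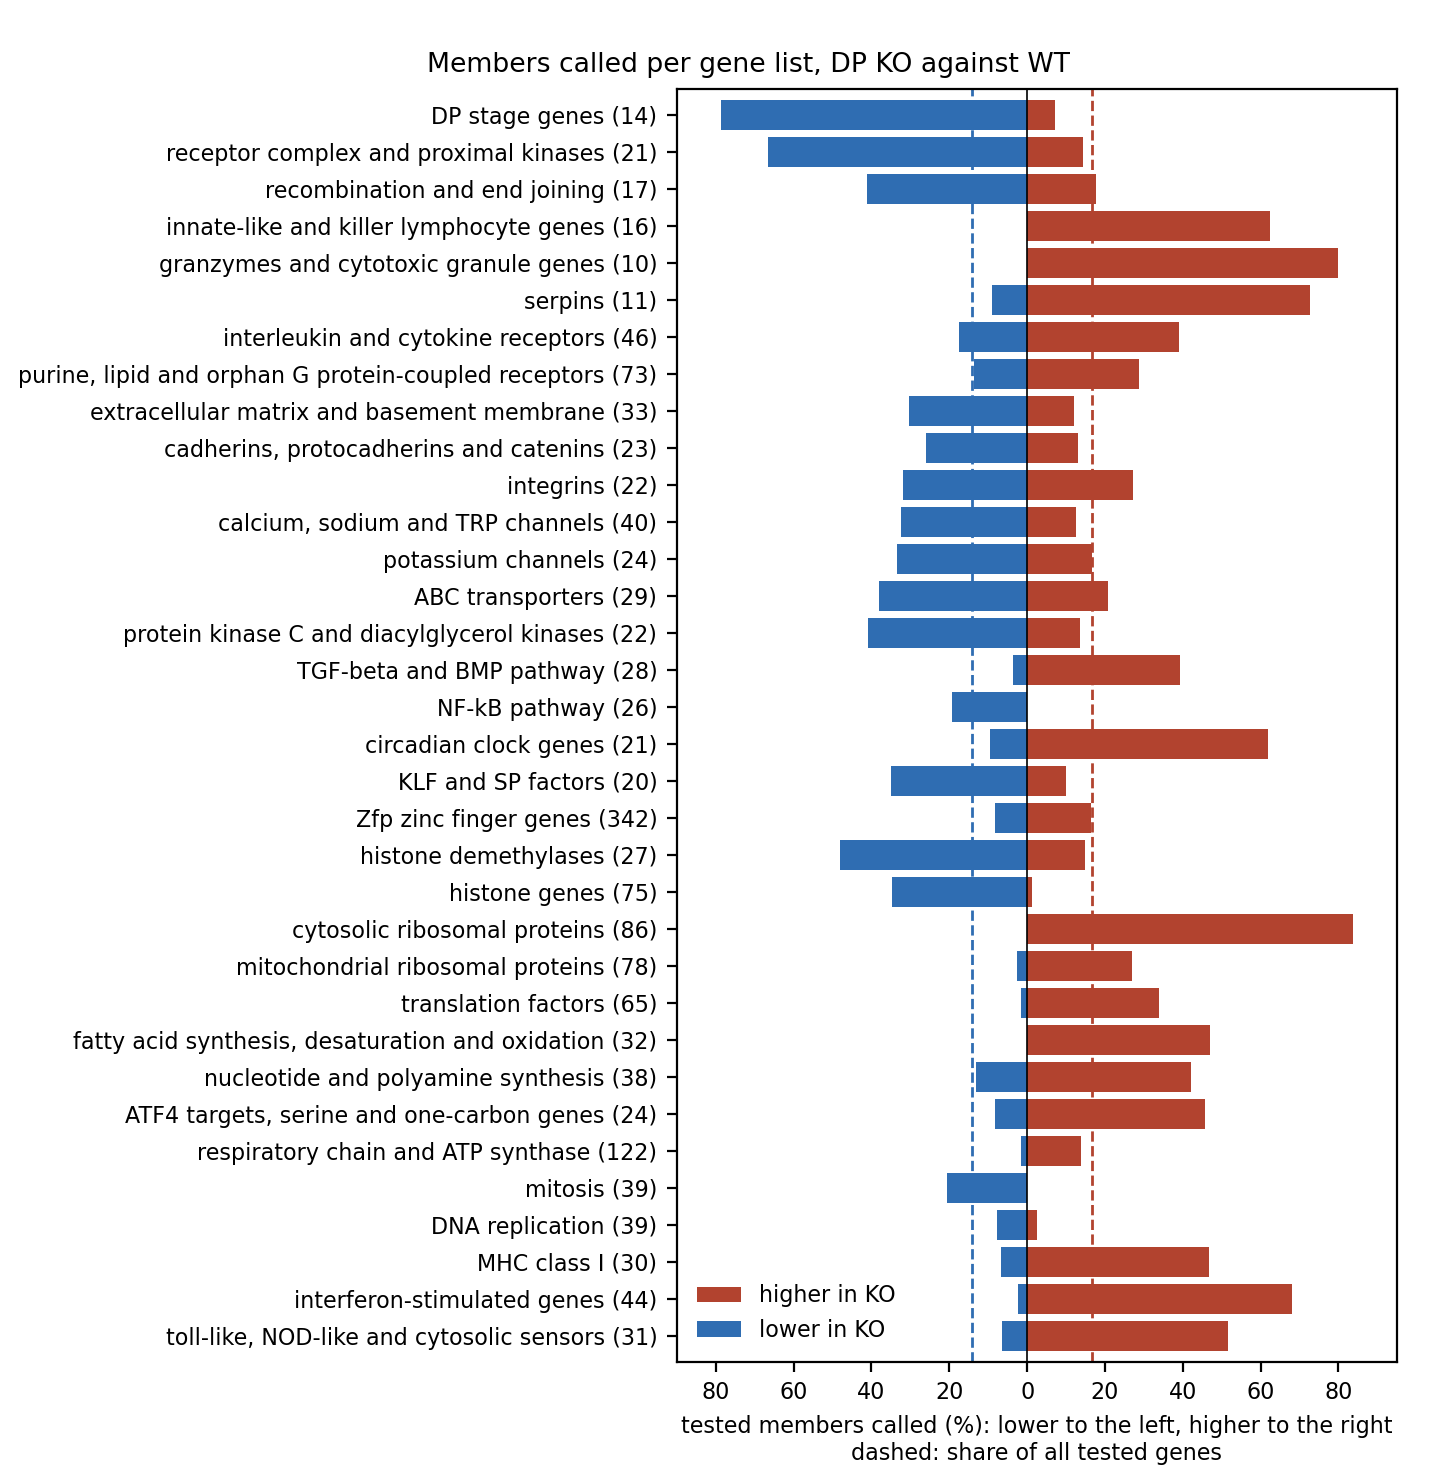
Each pair of bars gives, for 1 gene list, the percent of its tested members that rose (to the right) and fell (to the left) in KO against WT, and the dashed lines mark the 16.7% and 14.1% of all tested genes. Cytosolic ribosomal proteins, granule genes, serpins and interferon-stimulated genes reach furthest to the right, and DP stage and receptor complex genes furthest to the left.

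**Figure D4:**
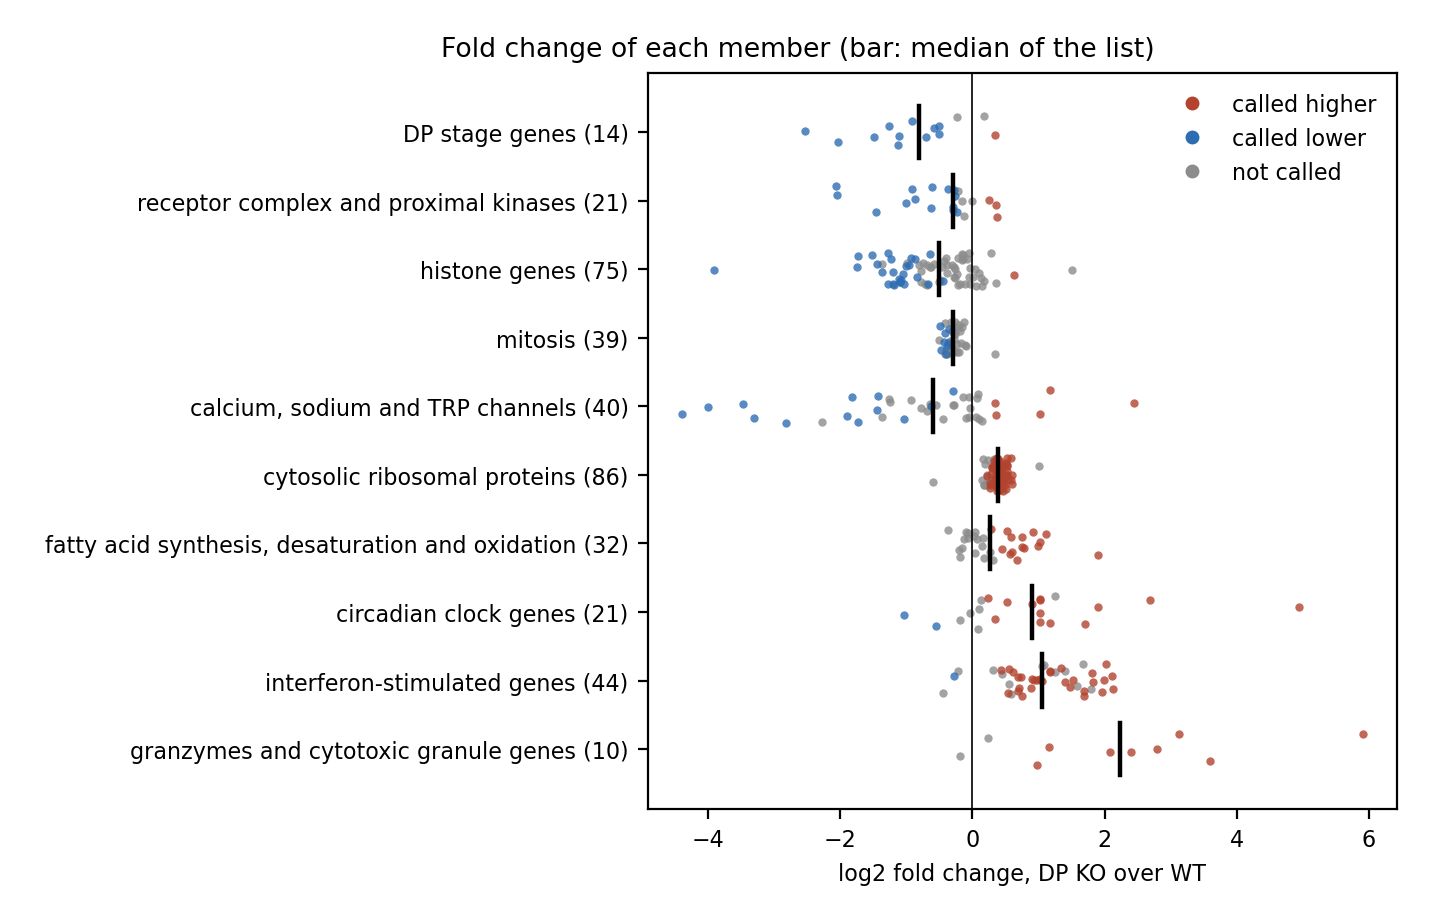
Each point is the log2 fold change of 1 tested member of 10 lists, coloured by its call, with the list's median as a bar. Most ribosomal members lie in a narrow band around 0.39, with extremes of -0.60 and 1.01, whereas the members of the channel, histone and interferon lists spread over several log2 units.

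Neighbouring genes that were both called moved in the same direction in most pairs. Of 15845 pairs of neighbouring tested genes, 1752 (11.1%) had both members called. In 71.0% of these 1752 pairs (95% binomial interval, Wilson, 68.8 to 73.1) both moved the same way, 690 pairs up and 554 down. Where the spans of the pair did not overlap, the share was 67.7% (990 of 1463). Pairs share genes with each other, so the interval covers counting error only. There were 81 runs of at least 4 neighbours called in 1 direction, 46 rising and 35 falling, with 389 genes in all. Over all tested genes 16.7% rose and 14.1% fell. The pairs and runs to be expected from these background shares were not computed. The longest, of 13 genes on chromosome 2, consisted mostly of predicted zinc finger genes with near-identical copies, and its values are uncertain for that reason.

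Several runs lay in clusters of 1 gene family. The 7 genes from Dtx1 to Oas1a on chromosome 5, which take in 6 Oas genes, summed from 37.6 to 64.1 CPM in the WT libraries and from 101 to 211 CPM in the KO libraries. In Oas2 and Oas1b, KO 3 lay below WT 3. The 7 genes from Ms4a4b to Ms4a6d on chromosome 19, most of them membrane proteins of the MS4A family, summed from 36.4 to 38.4 CPM in the WT libraries and from 197 to 247 CPM in the KO libraries. The run on chromosome 3 of Gbp5, Gbp7, Gbp3 and Gbp2, with Pdlim5 and Kyat3 on either side, summed from 108 to 125 CPM in the WT libraries and from 179 to 230.0 CPM in the KO libraries, and in Gbp3 the lowest KO library (6.717 CPM, KO 3) lay just under the highest WT library (6.724 CPM, WT 3). The run from Hoxa5 to Hoxa7 on chromosome 6 summed from 3.80 to 5.22 CPM in the WT libraries and from 16.7 to 21.7 CPM in the KO libraries. In other runs the neighbours are of different families. On chromosome 9, the hyaluronan receptor Layn, the B cell coactivator Pou2af1 and Colca2 with the predicted genes between them summed from 5.58 to 7.92 CPM in the WT libraries and from 142 to 175 CPM in the KO libraries. Most of the KO sum was the predicted gene Gm32742, at 113, 105 and 101 CPM in KO 1 to 3. Pou2af1 was at 55.9, 54.7 and 36.7 CPM there, Layn at 1.19, 1.02 and 1.44 CPM and Colca2 at 1.12, 1.09 and 0.779 CPM. On chromosome 19, the receptor of the neurotrophic factor GDNF, Gfra1, was at 15.9, 15.9 and 24.2 CPM in WT and 299, 320.4 and 339.6 CPM in KO (4.11 ± 0.16), and 4 predicted genes around it rose too. On chromosome 13, the run of Amph, Gm31887, Tcrg and Stard3nl summed from 18.1 to 21.6 CPM in the WT libraries and from 376 to 511 CPM in the KO libraries.

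Falling runs included loci of the receptor and co-receptors. The run of 6 genes around Cd8b1 and Cd8a on chromosome 6, which takes in Rmnd5a and Rnf103, summed from 5234 to 5951 CPM in the WT libraries and from 2926 to 3005 CPM in the KO libraries. Cd3d, Cd3e and the adhesion genes Mpzl2 and Mpzl3 on chromosome 9 summed from 699 to 737 CPM in the WT libraries and from 477 to 506 CPM in the KO libraries. The sodium channel subunits Scn2b and Scn4b with Tmprss4 and BC049352, on the same chromosome, summed from 32.1 to 33.1 CPM in the WT libraries and from 4.33 to 6.82 CPM in the KO libraries. On chromosome 12, the kinases Cdkl1 and Map4k5 and the tubule-shaping GTPase Atl1 of the endoplasmic reticulum, with 2 predicted genes, summed from 59.1 to 67.7 CPM in the WT libraries and from 5.98 to 7.47 CPM in the KO libraries. The spans of 3 neighbouring pairs overlap in this last run, so reads of overlapping genes cannot be told apart there without knowing the strand setting.

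**Figure D5:**
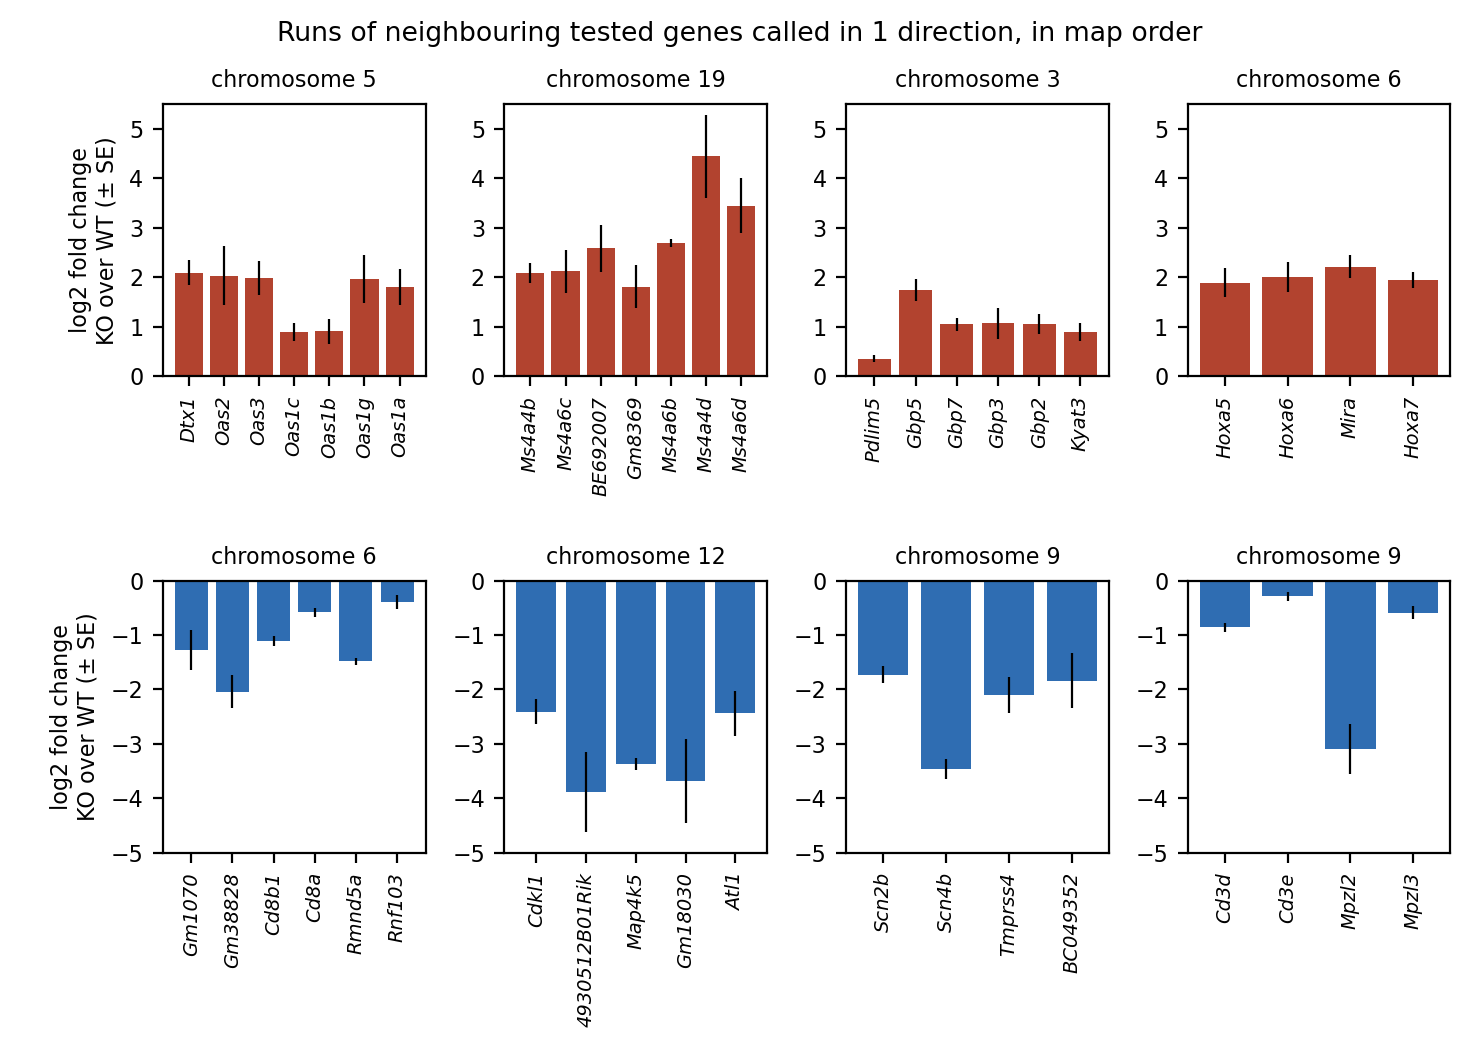
Bars give the log2 fold change of KO against WT, with its SE as error bars, for each gene of 8 runs of neighbouring genes. Genes stand in chromosome order along the x axis of each panel. All genes of a run lie on the same side of 0, and the sizes within a run differ.

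The promoter windows of the genes that changed most had fewer CpG pairs. The median was 20 CpG in the 300 bases over all 10257 windows, 11 over the 195 genes that rose by at least 2 on the log2 scale and 13 over the 242 that fell by as much. Over called genes of every size of change it was 20 for rises and 20 for falls, against 21 for genes not called. The sets were not matched by expression level, and its part in the CpG counts was not tested. The ETS site CCGGAAGT, common in CpG-rich promoters, stood in 8.36% of all windows, in 6.22% of genes that rose, in 4.85% of genes that fell and in 9.74% of genes not called. It stood in none of the 195 windows of the strongest rises and in 3 of the 242 windows of the strongest falls (1.24%). These shares describe letters within 300 bases and draw nothing about the factors.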

How the data were processed

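Poly(A) RNA of sorted thymocytes was sequenced as paired ends, per the labels' protocols. The deposited tables hold raw read counts per gene, made by the authors from mm10; Subread 1.0.1, DESeq2 and R 4.1.5 are named in the submitters' processing notes without a role. The sources used here do not give strand or multi-mapping settings, so near-identical copies and overlapping genes are uncertain. The DP table also holds the authors' deposited exon length per gene in bases, from which CPM per kilobase was computed.

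Groups came from the labels, 3 libraries each. Counts were filtered with filterByExpr, scaled by TMM and tested with edgeR 4.0.16 (quasi-likelihood, Benjamini-Hochberg adjusted p under 0.05) in R 4.3.3, DP libraries alone for KO against WT and all 12 for the interaction. Limma 3.58.1 (voom) and DESeq2 1.42.0 were alternatives, beside other filters and scalings, a replicate block, a fold minimum and each library left out. DP totals ran from 22790504 to 59840774 counts. On simulated data with 16496 genes, the DP fit called 88 of 100 genes changed by 1 on the log2 scale, 99 of 100 changed by 2 and 10 of 16296 unchanged ones. No replicate pair agreed within sampling noise (chi-square per degree of freedom 15.3 to 45.8).

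A batch field in the labels carries the replicate number, so same-numbered WT and KO samples share a batch label. The main fit had no term for it, and the replicate block was an alternative. Deviations of same-numbered WT and KO libraries correlated at 0.057, 0.0176 and 0.176, against -0.137 to 0.116 for other pairs.

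Members and lists were chosen with earlier results of these data known, and list patterns were corrected after symbols were seen. Motifs, the structural RNA and library-check sets, the non-overlapping pairs and the 1 CPM per kilobase level were chosen after the data were seen. Besides Satb1 and cell type markers, named genes were the 12 largest and 12 smallest log2 fold changes among called genes of at least 10 CPM per kilobase in a group with the same direction in all 3 same-numbered pairs (predicted and multiply placed genes left out), up to 4 called members per list by adjusted p, every tested member of lists of at most 12, and runs of at least 4 neighbours. Amph, Gfra1, Tcra, Tcrb, Tcrg, Rn7s1, Rn7s2, Rpph1, Rnu1a1 and list members given by direction without values were named after their values were seen. Promoter windows came from the RefSeq table of GRCm38.p6 and matched 10257 of 12734 protein-coding genes tested by symbol. Other tools were Python 3.11.15, pandas 2.3.3, numpy 2.4.6, scipy 1.17.1 and matplotlib 3.10.9. A few genes are not reported here.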

Additional observations from a re-analysis of the deposited data

Results flagged for a closer look

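Of the 24 genes with the largest rises and falls in DP, 17 had a KO effect that differed between CD4 and DP by the edgeR interaction test (adjusted p under 0.05 over 18431 genes). For the 10 falling genes the effect in CD4 minus that in DP was above 0 on the log2 scale: 2.52 for Jup, 3.00 for Slc7a11, 2.96 for Smoc1, 1.77 for Gramd1a, 2.95 for Cldn4, 3.38 for Dhrs3, 3.37 for Sema7a, 0.62 for F13a1, 4.77 for Rmrp and 3.72 for Rn7sk. For the 7 rising genes it was below 0: -2.07 for Pdlim4, -2.30 for Il2ra, -4.01 for Niban1, -3.66 for Il18r1, -1.60 for Scin, -3.16 for Actn2 and -3.21 for Maf. The genes were chosen for a large effect in DP, so a smaller effect in CD4 is the direction this choice favours. In CD4, Jup, Slc7a11, Gramd1a and F13a1 still fell, by 2.07, 1.42, 2.03 and 2.61 on the log2 scale, and all 7 rising genes still rose, by 1.51 (Niban1) to 4.59 (Scin). Smoc1, Cldn4, Dhrs3, Sema7a, Rmrp and Rn7sk were not called in CD4, with log2 fold changes of -0.98, -0.77, -0.26, -0.24, 1.58 and 0.67. The interaction of Rmrp lost its call with limma-voom, without CD4 KO 1 and without DP WT 1.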

How the results depend on the processing

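With WT 3 as the lone control, 1089 genes rose and 818 fell, and with a minimum absolute log2 fold change of 1 the counts were 877 and 1181; fewer libraries and a stricter threshold enter these by construction. Leaving out 1 library gave 1874 (without WT 2) to 3027 (without KO 3) rising and 1805 (without KO 1) to 2533 (without KO 3) falling genes, and 2138 to 2636 and 2077 to 2821 for the interaction. DESeq2 gave 2838 and 2740, limma-voom 2809 and 2437, DESeq2 size factors 2614 and 2513, and no low-count filter 3305 and 3100. With the replicate block, 2747 genes rose and 2319 fell, and the interaction gave 2716 and 2621. Of the named genes the block ended the calls of Gpc5, Gimap3, Irf9 and Mcm2 (edgeR adjusted p 0.0625, 0.0603, 0.0652 and 0.0650), and beside the counts given in the report it changed no other call of a named gene that had passed. Among neighbouring pairs with both members called, the share moving the same way, 71.0%, was 76.6% for starts within 50 kb and 67.7% for spans that do not overlap. Of 6156 values of the 440 called named genes under these alternatives, 5954 kept their call, 202 lost it and 0 reversed; 95 genes lost it with the lone control. Depth limited low genes most: 3 counts were 0.133 CPM in WT 3, the shallowest library.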
